A study of Homo sapiens with 14 samples.

Results

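Untransduced K562 cells were compared with K562 cells given a control guide against AAVS1, gene by gene. K562 is a human leukaemia line of erythroid character, grown from chronic myeloid leukaemia, and in every group it carried dCas9-KRAB, a nuclease-dead Cas9 fused to a KRAB repressor domain. The study asked what loss of subunits of the silencing complexes HUSH and HUSH2 does to the transcriptome, and both groups compared here are its controls. The untransduced group held 2 libraries of total RNA. The sgAAVS1 group held 3 libraries from cells transduced with the control guide and harvested 7 days later. The other 4 groups, given guides against TASOR, TASOR2, MPP8 or PPHLN1 (Periphilin) and also harvested at 7 days, are used only to set their levels beside those of the controls. The sources used here do not say whether the line is 1 clone, how transduced cells were selected or when the untransduced cells were harvested. Transduction, the guide, any selection and time in culture therefore cannot be told apart.

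The AAVS1 site lies in the first intron of PPP1R12C on chromosome 19 and is widely used as a safe harbour, a place where insertions or cuts are thought to disturb the cell little. In CRISPR interference the guide brings dCas9-KRAB to its target, where KRAB recruits the corepressor TRIM28 and the histone methyltransferase SETDB1 and a promoter nearby is silenced. A guide to AAVS1 therefore gives a cell the vector and a loaded dCas9-KRAB without a target gene that the study set out to silence. Lentiviral vectors, the usual carriers of guides, can in other cells set off sensors of foreign nucleic acid and interferon-stimulated genes, so lists of these genes are among those described here.

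Levels are the authors' group means of log2 CPM (reads scaled to the depth of their library), and each difference is the sgAAVS1 mean minus the untransduced mean on that log2 scale. Genes entered when either control mean was above 0, which held for 15854 of the 35718 gene symbols in the table. The other 19864 symbols did not enter. The geometric mean depth was 7406968 reads per library in untransduced cells and 6202795 in sgAAVS1 cells. The number after ± is the distance from a difference to the bounds of its 95% counting interval, which takes in Poisson error and no other. Single libraries are not given, so there is no p-value, and the spread between libraries could not be measured. A gene is called higher or lower in sgAAVS1 cells when its means differed by at least 1 log2 unit (2-fold), its higher mean was above 0 and its counting interval excluded 0.

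Most genes had nearly the same mean in both groups. Over the 15854 genes the median difference was -0.05, 78.6% of genes lay within 0.25 of 0 and 92% within 0.5. The median difference was lower at lower levels. It was -0.02 for genes with a higher mean above 5, -0.15 between 2 and 3 and -0.23 between 0 and 1. By the rule 36 genes were higher in sgAAVS1 cells (0.227% of genes tested) and 206 were lower (1.3%), together 1.53%. Most of them were weakly expressed. Of 1310 genes with a higher mean between 0 and 1, 18 were higher and 120 lower, a share of 10.5%, whereas of 9384 genes with a higher mean above 5, none was higher and 2 were lower, a share of 0.0213%. Of the 206 lower genes, 151 had entered through the untransduced mean alone, and of the 36 higher genes 20 had entered through the sgAAVS1 mean alone, so their direction was fixed by the entry rule. Among the 15202 genes with both means above 0, 16 were higher and 55 lower. The excess of lower genes depended on the scaling, and quantile normalization of the means gave 103 higher and 74 lower. Protein-coding genes made up 63.9% of the higher and 63.7% of the lower genes with a known type, against 82.9% of all tested genes.

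**Figure D1:**
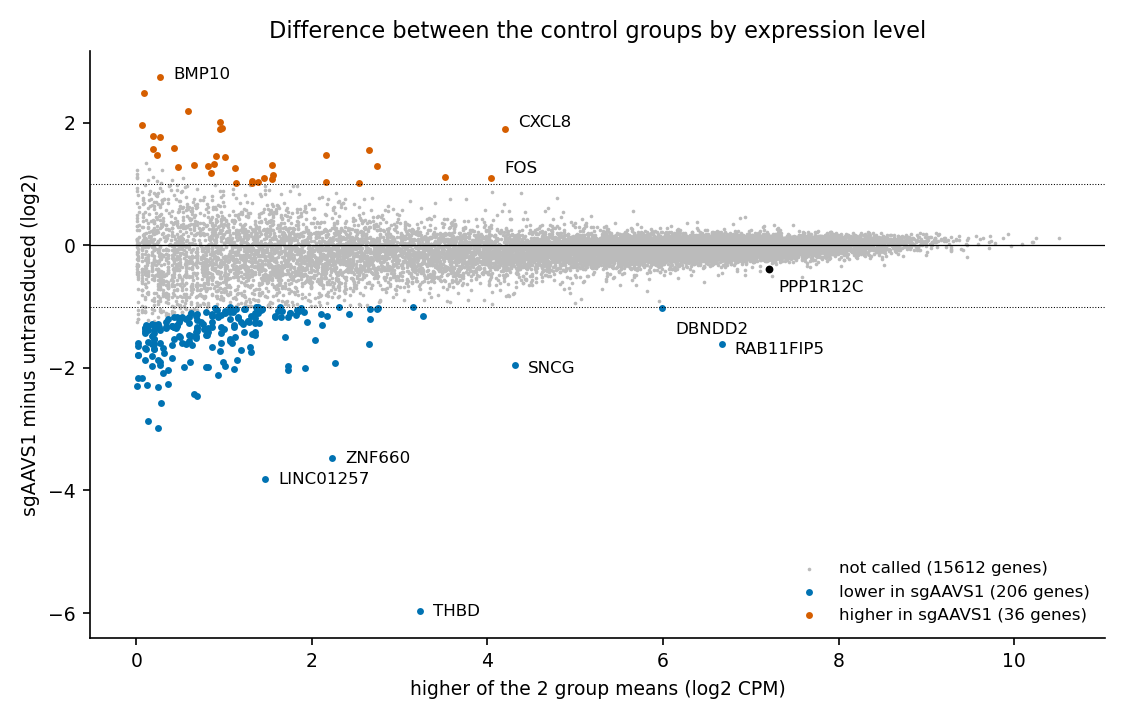
Difference between sgAAVS1 and untransduced cells (log2) against the higher of the 2 group means (log2 CPM), 1 point per tested gene, with genes lower in sgAAVS1 cells in blue and genes higher in orange; dotted lines mark 1 log2 unit. The cloud narrows with level, THBD stands at -5.97, and RAB11FIP5 and DBNDD2 are the called genes with a higher mean above 5.

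The lower genes were led by THBD, which had almost no reads in sgAAVS1 cells. THBD encodes thrombomodulin, a cell-surface receptor that turns thrombin to an anticoagulant role (chromosome 20, 23045633 to 23049741 on hg38, protein-coding). Its mean was 3.23 in untransduced cells, about 69.7 reads per library, and -2.73 in sgAAVS1 cells. Of the 3 sgAAVS1 libraries, 2 held 0 reads of THBD and 1 held 1 read. The difference was -5.97 ± 0.96, with 0 reads entered as 0.9 reads. THBD stood between 3.13 and 3.46 in the 4 groups with guides against HUSH or HUSH2 subunits, so sgAAVS1 alone among the 6 groups was near 0 reads.

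RAB11FIP5 and DBNDD2 were the 2 lower genes measured with the most reads. RAB11FIP5 binds the small GTPase Rab11 and acts in recycling endosomes (chromosome 2, 73073382 to 73156721). It had a mean of 6.67 in untransduced cells and 5.06 in sgAAVS1 cells, a difference of -1.60 ± 0.14 or 32.9% of the untransduced level. Its mean in the other 4 groups was 6.32 to 6.92. RAB11FIP5 overlaps SFXN5 on the same strand, which had 6.24 and 6.48 and was not called. How reads in the overlap were counted is not given. DBNDD2, a dysbindin-domain protein that binds casein kinase 1 (chromosome 20, 45406057 to 45410610), had 5.99 and 4.96, a difference of -1.03 ± 0.15. It overlaps the readthrough gene SYS1-DBNDD2, which had 5.95 and 5.04, and reads of the 2 gene models cannot be told apart. DBNDD2 stood at 5.87 to 6.27 in the other 4 groups, and it fell short of 1 log2 unit after median centring, at -0.98. For both genes the sgAAVS1 mean was the lowest of the 6.

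SNCG, which encodes gamma-synuclein, a small neuronal protein (chromosome 10, 86958618 to 86963260), went from 4.32 to 2.36, a difference of -1.96 ± 0.34. It stood at 4.26 to 4.94 in the other 4 groups. SNCG lies inside MMRN2, an extracellular matrix gene of the opposite strand, which went from 1.72 to -0.31 (-2.03 ± 0.95). Use of strand in counting is not given, so reads of this pair cannot be assigned to either gene with certainty. CD80, a co-stimulatory ligand for T cells that falls outside the naming rule and was chosen after its values were seen, had 3.27 and 2.11.

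ZNF660, a zinc finger gene on chromosome 3, went from 2.23 to -1.24, a difference of -3.47 ± 1.04, and stood at 2.08 to 3.20 in the other 4 groups. It overlaps ZKSCAN7 and ZNF197 on the same strand. LINC01257, a long intergenic noncoding RNA gene on chromosome 12, went from 1.46 to -2.35 (-3.81 ± 1.06), and its 3 sgAAVS1 libraries held 0, 1 and 2 reads. Its other 4 means were 1.29 to 1.87. In these genes too the sgAAVS1 mean was the lowest of the 6.

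In other leading lower genes the means of the 4 groups with other guides lay between those of the controls. CXADR, the receptor for coxsackievirus and adenovirus, had 0.13 in untransduced cells and -2.73 in sgAAVS1 cells (-2.87 ± 1.22), and its 4 other means were -2.14 to -1.0. NGEF, a guanine nucleotide exchange factor, had 0.24 and -2.73 (-2.98 ± 1.19), with other means of -1.55 to 0.08. For each gene 2 of the 3 sgAAVS1 libraries held 0 reads and the remaining one held 1. RASSF2, a Ras-association protein, had 0.70 and -1.77, with other means of -1.0 to 0.17. DUSP15, a dual-specificity phosphatase, had 2.26 and 0.34, and PRSS38, a serine protease, 1.92 and -0.09, with other means of 1.01 to 1.77 and 0.19 to 1.51. In these 5 genes the untransduced mean was the highest of the 6, with about 8.1 to 35.5 reads per library behind it. CXADR, NGEF, RASSF2 and PRSS38 entered through the untransduced mean alone, as did THBD, ZNF660 and LINC01257, so they could only be lower. Leading genes of either direction were picked for the gap between the controls. That choice by itself favours a control mean as the highest or lowest of the 6, with other means in between.

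In some low genes the reads of each library could be recovered. RAP1GAP2, an activator of the GTPase activity of Rap1, was lower by 2.31 log2 units (-2.31 ± 1.23), and its 3 sgAAVS1 libraries held 0, 0 and 4 reads. POPDC3, a cAMP-binding membrane protein, was at -2.27 ± 1.21, with 0, 1 and 5 reads. IRX6, an Iroquois homeobox gene, went from 0.65 to -1.77, and the antisense RNA gene RP13-467H17.1 from 0.28 to -2.30.

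**Figure D2:**
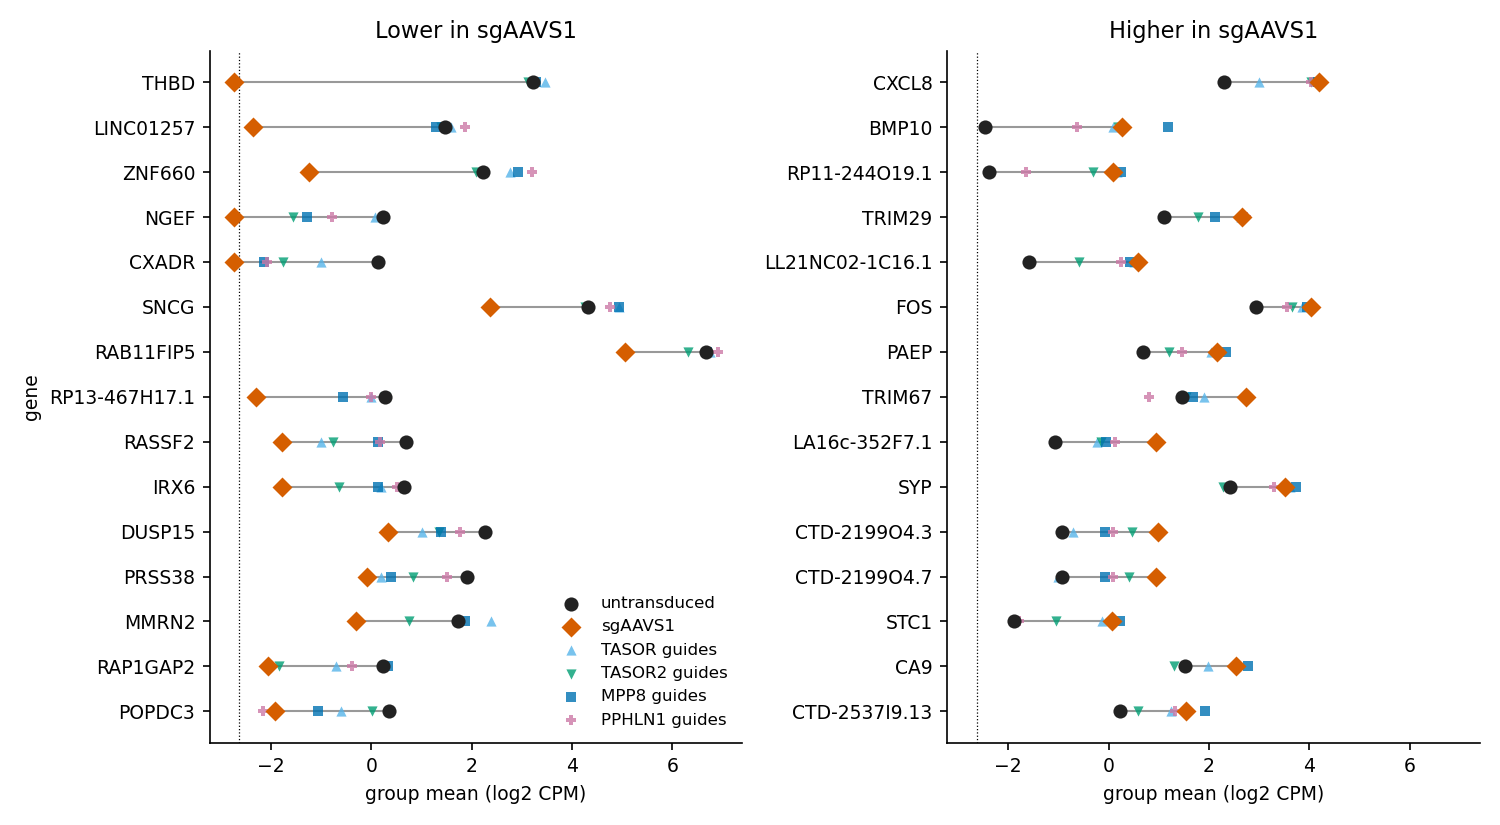
Group means (log2 CPM) of the 15 lower and 15 higher genes with the counting interval farthest from 0, in untransduced cells (black circles), sgAAVS1 cells (orange diamonds) and the 4 groups with other guides; the dotted line is the level of 3 counts over the sgAAVS1 group. For THBD, LINC01257, ZNF660, SNCG and RAB11FIP5 the other guides lie near the untransduced mean, and for CXCL8 and FOS they lie between the controls or near sgAAVS1.

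The higher genes were led by CXCL8, the chemokine interleukin-8 that attracts neutrophils (chromosome 4, 73740506 to 73743716). It had a mean of 2.30 in untransduced cells, about 36.4 reads per library, and 4.20 in sgAAVS1 cells, about 113.9 reads. The difference was 1.90 ± 0.37, or 3.73-fold. CXCL8 stood at 2.99 in the TASOR group and at 4.03 to 4.18 in the other 3 groups, so its untransduced mean was the lowest of the 6.

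FOS, the immediate early transcription factor that pairs with JUN proteins to form AP-1 (chromosome 14, 75278774 to 75282230), had 2.94 and 4.04, a difference of 1.09 ± 0.31. Its other 4 means were 3.55 to 3.95, again above untransduced cells. TRIM29, a TRIM-family protein with roles in innate immunity, had 1.10 and 2.65 (1.55 ± 0.59), with other means of 1.79 to 2.74. SYP, the synaptic vesicle protein synaptophysin on the X chromosome, had 2.41 and 3.52 (1.10 ± 0.38), and here the TASOR2 group, at 2.28, was below untransduced cells. TRIM67, a neuronal TRIM protein, had 1.46 and 2.74 (1.29 ± 0.53), with other means of 0.81 to 1.90, so for this gene sgAAVS1 was the highest of the 6.

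PAEP, which encodes the secreted lipocalin glycodelin, had 0.69 and 2.16 (1.47 ± 0.70). CA9, a hypoxia-induced carbonic anhydrase, had 1.52 and 2.54 (1.02 ± 0.53), and fell short of 1 log2 unit with the trend on GC content removed, at 0.95. BMP10, a ligand of the bone morphogenetic protein family, was 2.74 ± 1.37 higher, but its 2 untransduced libraries held 0 and 2 reads and its sgAAVS1 mean stood for about 7.5 reads. For the lincRNA gene LA16c-352F7.1, 2.01 ± 1.28 higher, the 2 untransduced libraries held 0 and 14 reads, against about 12 reads per library in sgAAVS1 cells. These low genes thus rest on few reads, and in LA16c-352F7.1 on 1 library with none. The noncoding genes CTD-2199O4.3 and CTD-2199O4.7, 1.92 and 1.89 higher, overlap almost fully and count as 1 locus.

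Of the higher genes with a known promoter, 9 held the AP-1 motif TGANTCA, the element that FOS and JUN dimers bind. The 250 bases before the start were taken from RefSeq (GRCh38.p14), which had an entry for 17 of the 36 higher genes, 103 of the 206 lower genes and 10846 of all 15854 tested genes. Both strands were searched. TGANTCA was found in 9 of the 17 higher promoters (52.9%), in 3 of the 103 lower promoters (2.91%) and in 398 of the 10846 promoters (3.67%). Among higher genes with both means above 0 it was in 6 of 10 promoters. The RefSeq start lay within 100 bases of the deposited gene start in 11 higher promoters, and 5 of these held the motif (45.5%). With the same limit it was in 228 of 6575 tested promoters (3.47%). Promoters of CXCL8, CA9, PAEP and TRIM67 are printed here 5' to 3' because they hold the match, and that of FOS because the gene codes for an AP-1 subunit and holds none. Capitals mark every match to a motif searched.
CXCL8: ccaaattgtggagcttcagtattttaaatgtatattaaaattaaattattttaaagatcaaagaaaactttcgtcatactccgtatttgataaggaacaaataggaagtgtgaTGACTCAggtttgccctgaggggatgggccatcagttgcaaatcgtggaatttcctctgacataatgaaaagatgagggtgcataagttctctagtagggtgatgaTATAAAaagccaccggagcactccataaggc
CA9: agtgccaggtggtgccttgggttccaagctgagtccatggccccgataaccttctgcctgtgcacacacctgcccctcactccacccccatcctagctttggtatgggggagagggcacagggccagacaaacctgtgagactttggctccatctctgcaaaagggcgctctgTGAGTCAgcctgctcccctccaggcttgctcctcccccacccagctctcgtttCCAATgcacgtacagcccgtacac
PAEP: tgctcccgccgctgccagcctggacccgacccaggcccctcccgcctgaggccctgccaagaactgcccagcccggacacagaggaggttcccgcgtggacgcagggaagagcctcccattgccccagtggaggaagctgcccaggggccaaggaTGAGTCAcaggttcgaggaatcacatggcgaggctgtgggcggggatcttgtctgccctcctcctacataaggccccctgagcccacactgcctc
TRIM67: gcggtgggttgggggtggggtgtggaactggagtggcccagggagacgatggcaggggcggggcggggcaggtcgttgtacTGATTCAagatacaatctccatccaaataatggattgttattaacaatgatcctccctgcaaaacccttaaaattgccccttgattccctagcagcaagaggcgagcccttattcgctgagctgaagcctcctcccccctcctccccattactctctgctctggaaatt
FOS: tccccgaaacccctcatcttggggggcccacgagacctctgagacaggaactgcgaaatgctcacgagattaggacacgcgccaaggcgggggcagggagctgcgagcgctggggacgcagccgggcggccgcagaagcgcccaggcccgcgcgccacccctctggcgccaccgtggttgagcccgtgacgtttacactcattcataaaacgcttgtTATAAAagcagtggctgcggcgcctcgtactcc
They cover chr4:73740319-73740568, chr9:35673678-35673927, chr9:135561506-135561755, chr1:231161808-231162057 and chr14:75278578-75278827, all on the plus strand. The match began 137 bases before the RefSeq start in CXCL8 (TGACTCA), 77 in CA9 (TGAGTCA), 95 in PAEP (TGAGTCA) and 169 in TRIM67 (TGATTCA). The other capitals are TATAAA in CXCL8 and FOS and CCAAT in CA9.

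The other 5 higher genes with the match were TNFRSF9 and TNFSF14, a receptor and a ligand of the tumour necrosis factor superfamily, TSPAN10, a tetraspanin with 2 matches, PLB1, a phospholipase, and XIRP1, an actin-binding protein of muscle. They fall outside the naming rule and were chosen after their values were seen. Their differences were 1.05 ± 0.86 for TNFRSF9, 1.10 ± 0.83 for TNFSF14, 1.45 ± 1.15 for TSPAN10, 1.57 ± 1.39 for PLB1 and 1.45 ± 1.11 for XIRP1, each on no more than about 17.0 reads per library. TSPAN10, PLB1 and XIRP1 had untransduced means under 0 and entered through the sgAAVS1 mean alone, so they could only be higher.

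The share of promoters with TGANTCA was higher toward the larger positive differences. It was 3.25% of 5291 promoters with a difference between -0.25 and 0 and 3.51% of 3791 between 0 and 0.25. Above that it was 9.2% of 163 between 0.25 and 0.5, 10.8% of 93 between 0.5 and 1 and 47.4% of 19 above 1. Toward negative differences it stayed between 2.42% and 4.63%. The matches in the bin above 1 are those of the same 9 higher promoters, so that bin is not a separate result. Higher promoters were also poorer in CpG, with a median of 5 CpG per 250 bases against 21 over all tested genes, and uncalled promoters with 7 or fewer CpG held the motif in 8.93% of 1399. Among uncalled genes of like level (higher mean between 0 and 3) it was 5.13% of 1424. The share among higher genes was 24.4% of 45 after quantile normalization and 25.6% of 43 at a threshold of 1.5-fold. The 398 genes with the motif did not move as a whole, with a median difference of -0.04, as in the 10448 without it.

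The other motifs searched were in 0 to 4 of the 17 higher promoters. TATAAA was in 2 (11.8%, against 5.55% of all tested), CCAAT in 4 (23.5% against 35.5%) and an NF-kB motif in 1 (5.88% against 0.516%). The cAMP response element TGACGTCA and an interferon-stimulated response element were in none (2.9% and 2.3% of all tested). No match of one of these 6 motifs can contain a match of another. A match describes letters in this window and is not evidence of binding.

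Of 14 genes for AP-1 subunits and related factors, listed after the promoters were searched, FOS was higher and none of the other 13 was called. FOS was already known to be higher when the list was drawn up. Its call is thus no separate result beside the 0.227% of all tested genes called higher. FOSB, a FOS paralogue, had 4.16 and 4.49 (0.33 ± 0.22), and FOSL2 5.40 and 5.57 (0.17 ± 0.15). JUNB had 6.30 and 6.47 (0.16 ± 0.11), and JUN itself 7.08 and 7.05 (-0.03 ± 0.09). Also below 0 were ATF3 (-0.08 ± 0.11), BATF (-0.10 ± 0.39), BATF2 (-0.12 ± 0.19) and BATF3 (-0.39 ± 0.87). The remaining members lay above 0, from FOSL1 at 0.03 ± 0.15 to MAFF at 0.22 ± 0.16. Other immediate early genes lay on either side of 0, with EGR1, a zinc finger factor, at 0.44 ± 0.10, SPRY1, an inhibitor of growth factor signalling, at -0.61 ± 0.37, and KLF2, a Kruppel-like factor, at -0.74 ± 0.52. These 3 were chosen after their values were seen, and none was called.

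**Figure D3:**
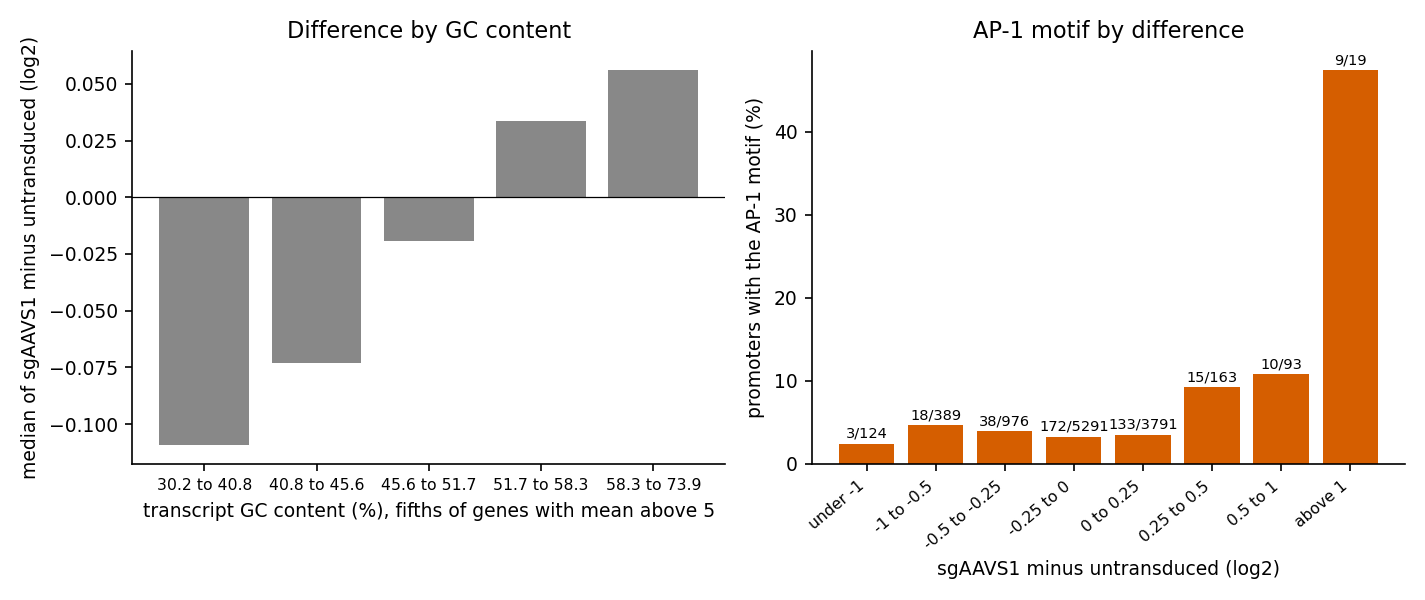
Left, median difference (log2) in quintiles of genes by transcript GC content, for genes with a mean level above 5; right, percent of promoters with TGANTCA in bins of the difference, with counts above the bars. The median goes from -0.11 in the quintile with least GC to 0.06 in the quintile with most, and the motif share from 3.25% just under 0 to 47.4% above 1.

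PPP1R12C, the host gene of the AAVS1 site and a regulatory subunit of protein phosphatase 1 (chromosome 19, 55090913 to 55117559, minus strand), was slightly lower in sgAAVS1 cells and did not pass the rule. It had 7.21 in untransduced cells and 6.82 in sgAAVS1 cells, a difference of -0.40 ± 0.09, or 76% of the untransduced level. In the groups with other guides it stood at 7.23 to 7.59, so its sgAAVS1 mean was the lowest of the 6. Of 3180 genes with a mean level within 0.5 of its own, 6 (0.189%) had a lower difference.

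No tested neighbour passed the rule. None of the 38 other tested genes within 500 kb was called, beside 1.53% of all tested genes, and their median difference was 0.08. The 24 of them with both means above 5 lay between -0.11 and 0.22. Only 0.0213% of all tested genes with a higher mean above 5 were called, so a lack of calls among these neighbours says little. The nearest tested genes are the troponin genes TNNT1 (6.42 and 6.64) and TNNI3 (5.69 and 5.88) on one side, and EPS8L1, an actin regulator (5.04 and 5.15), and the retinol dehydrogenase gene RDH13 (6.20 and 6.42) on the other. GP6, the platelet collagen receptor at -79.3 kb from the start of PPP1R12C, had 3.52 and 4.19 (0.67 ± 0.27), the highest difference in the region, and stood at 2.94 to 4.82 in the other groups. The lowest were those of TMEM150B (-0.42 ± 0.63), TMEM238 (-0.40 ± 0.39) and CTD-2105E13.6 (-0.40 ± 0.63), which are as low as PPP1R12C but have means under 3 and wide intervals.

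**Figure D4:**
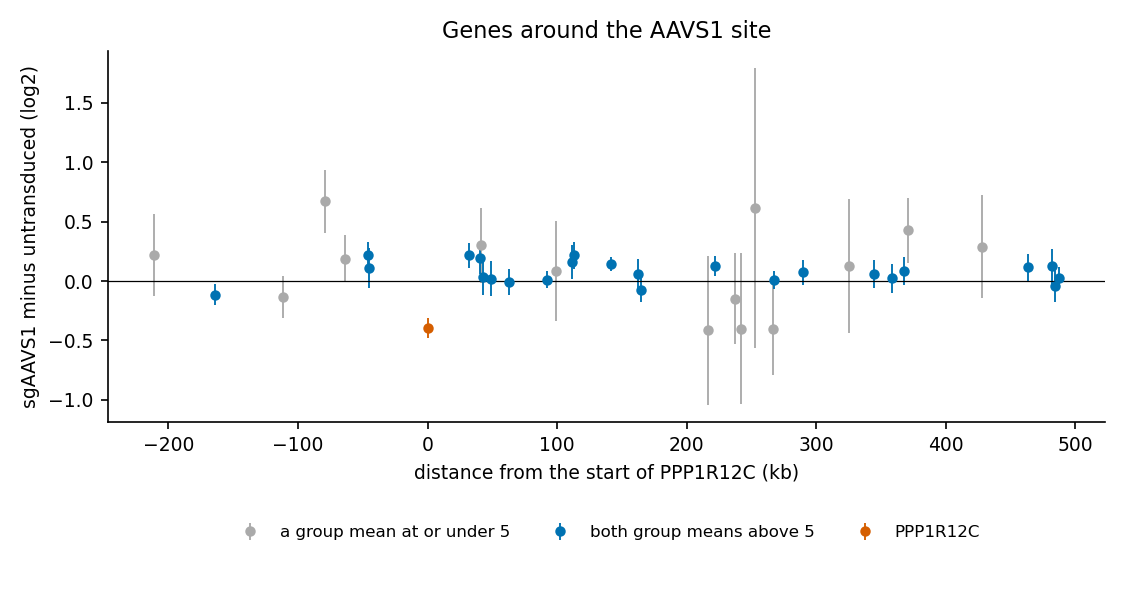
Difference between sgAAVS1 and untransduced cells (log2) for tested genes within 500 kb of PPP1R12C, against distance from its start (kb); bars are 95% counting intervals. PPP1R12C, at -0.40, lies below the genes with both means above 5 (blue), and the wide intervals belong to genes with few reads (grey).

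Lists of genes tied to responses that a vector could provoke were examined next. Of 90 genes in the interferon and nucleic acid sensing lists 1.11% were lower and none was higher, against 1.3% and 0.227% of all tested genes. The 2 lists had median levels of 5.30 and 5.85, and shares were not matched for level. Only 0.0213% of tested genes with a higher mean above 5 were called, so few calls here say little. Of 63 interferon-stimulated genes tested, none was higher and 1 was lower, TNFSF10, the death ligand TRAIL, with 1.0 and -0.36 (-1.37 ± 1.03). Their median difference was -0.10, beside -0.05 for all tested genes, and 19 of the 63 had a difference above that all-gene median. Of 27 sensors and adaptors of innate nucleic acid sensing none was called, and MAVS, the adaptor of RNA sensing and the member with the highest mean, had 9.03 and 9.10.

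Inflammatory and stress lists held 3 called genes in all. Among 31 inflammatory and NF-kB genes CXCL8 was higher and none was lower, with a median of -0.05. Of 44 immediate early genes FOS was higher and none was lower, with a median of 0.03. None was called among 29 p53 target and DNA damage genes, 43 ATF4 and amino acid stress genes, 34 heat shock and unfolded protein genes, and 32 cholesterol synthesis and uptake genes, whose medians lay between -0.04 and 0.05. SESN2, a stress-induced sestrin, had 8.06 and 8.12, HYOU1, a chaperone of the endoplasmic reticulum, 8.74 and 8.85, and FASN, the fatty acid synthase, 9.37 and 9.46. Among 33 glycolysis and hypoxia genes CA9 was higher and none was lower, and HK1, a hexokinase, had 8.43 and 8.59. Against the 0.227% of all tested genes called higher, 1 of 31, 1 of 44 or 1 of 33 is a single gene in each list.

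Of 154 genes in the lineage, growth and surface lists, 2 were lower (1.3%, the share over all tested genes) and none was higher. The median levels of these lists were 4.33 to 7.23, and shares were not matched for level. Only 0.0213% of tested genes with a higher mean above 5 were called, so lists without a call say little. Of 53 erythroid genes none was called, with a median of -0.03, and EPB41, a membrane skeleton protein, had 8.91 and 8.98. Of 27 megakaryocyte and myeloid genes THBD was the 1 lower gene and none was higher. Of 47 proliferation genes none was called, with differences between -0.26 and 0.15, and MKI67, the Ki-67 gene, had 9.28 and 9.19. CXADR was the 1 lower gene among 28 surface receptors and adhesion genes, where ITGA5, an integrin chain, had 7.99 and 8.06.

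Genes of HUSH and of heterochromatin were at like levels in both controls, and none of the 30 was called, beside 1.53% of all tested genes. The list's median level was 7.19, and only 0.0213% of tested genes with a higher mean above 5 were called. A count of 0 in 30 genes therefore says little. TASOR (FAM208A in the table) had 7.35 and 7.22, TASOR2 (FAM208B) 7.69 and 7.45, MPP8 (MPHOSPH8) 6.55 and 6.52, and PPHLN1 6.69 and 6.57. The difference of TASOR2, at -0.25 ± 0.07, was the largest of these 4 in size. Among the factors that KRAB and HUSH act with, TRIM28 had 8.21 and 8.34, SETDB1 7.48 and 7.44, and MORC2 7.12 and 7.16.

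Clustered protocadherins, which encode neuronal adhesion proteins, had low levels and held 8 lower members. All 22 tested were gamma genes of chromosome 5, and 8 were lower (36.4%) and none was higher. Of the 8, 7 had an sgAAVS1 mean under 0 and entered through the untransduced mean alone, so they could only be lower, and PCDHGB5 alone had both means above 0. Among all tested genes, 120 of 1310 with a higher mean between 0 and 1 and 67 of 1246 between 1 and 2 were lower. The median differences of those 2 sets were -0.23 and -0.18. The list's median difference was -0.57 and its range -1.60 to -0.12. PCDHGA11 had 0.97 and -0.63 (-1.60 ± 1.08), PCDHGC4 0.27 and -1.33, PCDHGC5 0.20 and -1.33, and PCDHGB5 1.36 and 0.17. PCDHGA4, the member with the highest mean, had 3.53 and 3.15 (-0.39 ± 0.31). The gamma genes have last exons in common and overlap on the strand, so the members are not independent. In all 8 lower members the untransduced mean was 1.36 or less, and the list's median level was 1.06 in untransduced cells, 0.39 in sgAAVS1 cells, 0.55 in the TASOR2 group and 1.60 to 2.04 in the TASOR, MPP8 and PPHLN1 groups.

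Zinc finger genes were lower about as often as all tested genes, in a comparison not matched for level. The list's median level was 5.37, and only 0.0213% of tested genes with a higher mean above 5 were called. Of 421 numbered zinc finger genes 6 were lower (1.43%, against 1.3% of all) and none was higher, with a median of -0.13, and 5 of the 6 entered through the untransduced mean alone. Beside ZNF660 they included ZNF516 (1.73 and -0.24), ZNF606 (0.77 and -0.59) and ZNF676 (0.01 and -1.77). Of 177 LINC genes 7 were lower (3.95%, against 1.3% of all) and 1 higher (0.565%, against 0.227% of all), with a median of -0.13. Of the 7, 6 entered through the untransduced mean alone, and LINC01315 had 0.43 and -1.10. The median level of the LINC genes was 2.88, and all tested genes with a higher mean between 2 and 3 had a median difference of -0.15. Among all tested genes, 13 of 1151 with a higher mean between 2 and 3 and 120 of 1310 between 0 and 1 were lower. Of 13 small structured RNA genes RNU11, a minor spliceosome snRNA, was lower, with 1.12 and -0.37 (-1.49 ± 1.01). That is a single gene (7.69%, against 1.3% of all), and it entered through the untransduced mean alone. None was called among 55 histone genes, 82 ribosomal protein genes and 13 mitochondrially encoded genes, where HIST1H2AG had 7.29 and 7.23, RPL7L1 8.12 and 8.04, and MT-ND4 8.30 and 8.29. Beside 1.53% of all tested genes this says little, because the median levels of these 3 lists were 5.29 to 7.42.

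**Figure D5:**
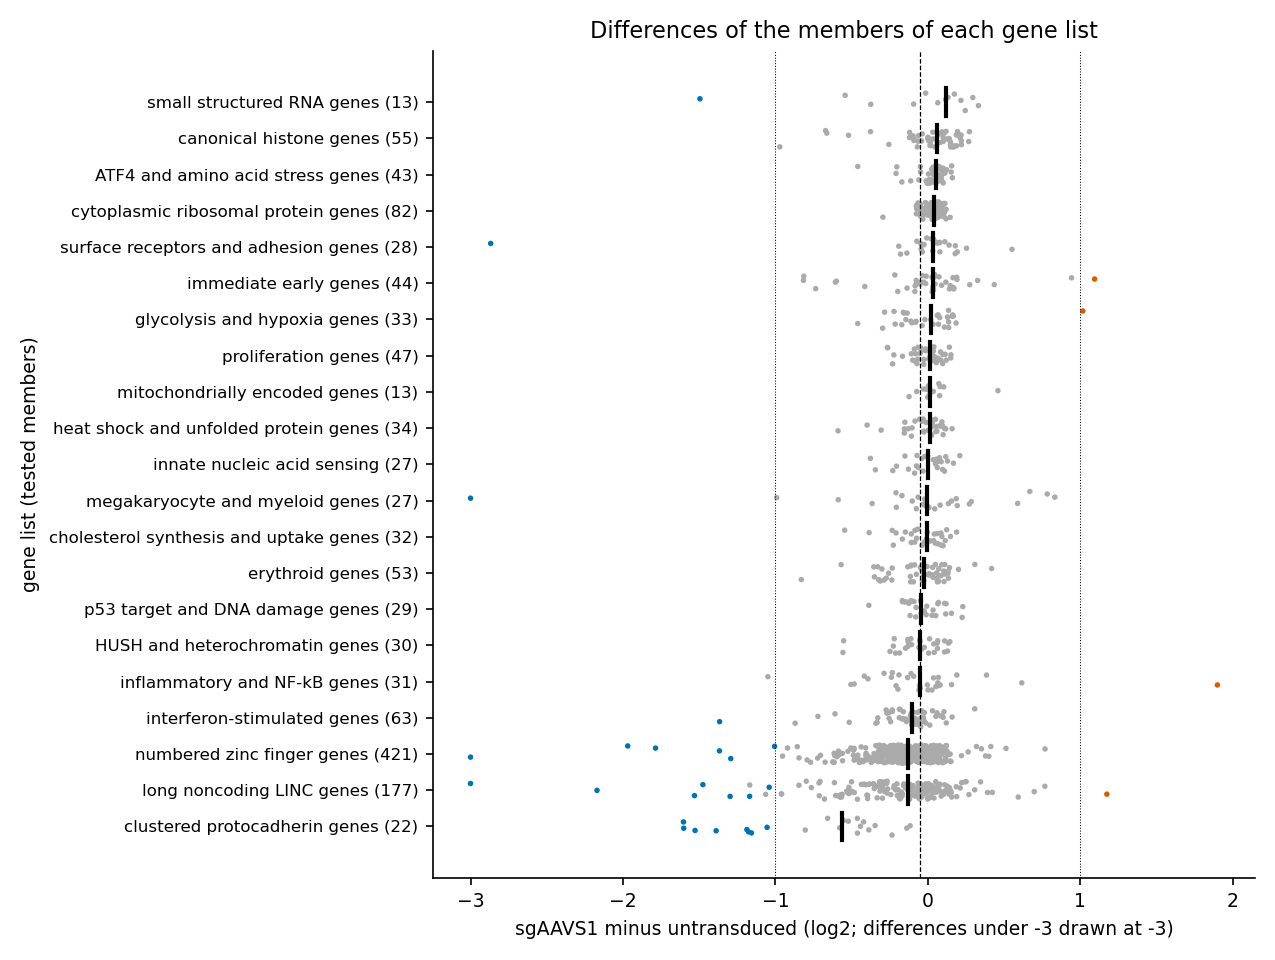
Difference between sgAAVS1 and untransduced cells (log2) of each tested member of the 21 gene lists, with the list's median as a black bar, the median of all tested genes as a dashed line and called members in blue (lower) or orange (higher). List medians other than that of the protocadherins lie between -0.13 and 0.12.

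A graded difference with base composition ran through the well-expressed genes. Over 9229 genes with a mean level above 5 the difference increased with the GC content of the transcript, with a Spearman rank correlation of 0.54 over genes that share libraries and depth, and declined with gene span (rank correlation -0.34). It also increased with mean level, with a rank correlation of 0.23 over these genes and 0.29 over all 15606 with a known GC content. By GC content the median was -0.11 in the quintile with the least GC and 0.06 in the quintile with the most. Zinc finger genes, with a median GC content of 43.3%, had a median of -0.13 and of -0.09 with the trend removed. For histone genes (57.4%) it went from 0.06 to 0.02, and for protocadherins (55.2%) from -0.57 to -0.62. Removing the trend left 34 higher and 205 lower genes, so the counts of called genes changed little, and its part in the differences of single lists was not tested further.

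Markers of the labelled line were present in both groups. All 15 K562 and erythroid markers were detected, 14 of them with a mean above 5, from 4.76 to 8.89 in untransduced and 4.53 to 9.02 in sgAAVS1 cells, GATA1 at 7.11 and 7.31 among them. Of 38 markers of other cell types 12 had 0 reads in both groups, among them CD2, CD8A, MS4A1, COL3A1, PDGFRA, CDH5 and VWF. Their summed level (log2) was 9.63 in untransduced and 9.71 in sgAAVS1 cells, carried by keratins and other genes that the line itself can express, such as KRT8 (7.76 and 7.89).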

How the data were processed

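Total RNA was depleted of ribosomal RNA and made into strand-specific libraries, per the labels' protocols. cutadapt and Bowtie2 were used and reads were placed on hg38, per the submitters' processing notes. For versions, the read counter, its annotation, duplicate handling and strand use, the detail was not given in the sources used here. Per the file headers, with the values as a check, the authors deposited the untransduced group mean on a log2 scale and, for each other group, the quotient of its log2 mean and the untransduced log2 mean. Each quotient was multiplied by the untransduced log2 mean. In 102 rows that mean lay within 0.05 of 0, where rounding makes the product less exact. Low values were checked for being the mean log2 of whole numbers of reads, where 0 reads count as 0.9. All 22669 untransduced and 21234 sgAAVS1 low values (products of reads over the libraries below 1000) matched within a relative tolerance of 1e-05, within which 2.02% and 3.11% of evenly spaced values would. This gave 2 and 3 libraries per mean, the depth, the value of 3 counts over the group (-2.30 and -2.63), and the reads of single libraries where 1 set alone gave the mean. The reads of a library are not independent molecules.

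Of rows with the same symbol, the one with the highest mean was used (87 dropped). Because single libraries are not given, a rule of size with a 95% Poisson counting interval took the place of limma; the rule was tested on simulated data. The members and the 21 lists were chosen with earlier results of these data known. Named genes were the 15 called genes a side with the interval farthest from 0, up to 5 a side with both means above 3, up to 4 called members and the highest member of each list, 8 anchors, and up to 3 tested genes on either side of PPP1R12C. Gene type and GC content came from GENCODE release 29 (15606 genes, 98.4%, matched by symbol, older symbol or position). Python 3.11.15, numpy 2.4.6, pandas 2.3.3, scipy 1.17.1 and statsmodels 0.14.6 were used. Alternatives were other scalings, filters, thresholds and intervals, removal of the GC trend, and 2 chosen after seeing the data.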

Additional observations from a re-analysis of the deposited data

How the results depend on the processing

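Counts of 36 higher and 206 lower genes followed the threshold, filter and scaling. Quantile normalization gave 103 and 74, a filter on either mean above 2 gave 8 and 19, a threshold of 1.5-fold 86 and 472, one of 3-fold 10 and 63, and a 99% interval 19 and 115. Both means above 0, chosen after seeing the data, gave 16 and 55. Median centring (41 and 177), the same without structured RNA, mitochondrial and histone genes (41 and 176), no filter, every row kept (36 and 206 in both), removal of the GC trend (34 and 205, with 31 and 188 of those called before) and, chosen after seeing the data, a bound on the spread of genes of like level (36 and 153) moved them by less than 1.5 times. Under another scaling or GC removal, 118 of 129 values of called named genes kept the call, 11 lost it and 0 changed sign. Of 105 values of uncalled named genes 13 changed sign, all of genes within 0.053 of 0, and 0 became called. Lost calls were those of CA9 with the GC trend removed, DBNDD2 and LINC01436 under both scalings, and LINC01315, ZNF606, ZNF676, PCDHGB5, PCDHGC4 and PCDHGC5 under quantile normalization. Of 84 alternative list medians 15 changed sign, in 9 lists whose medians lay within 0.054 of 0, and the largest shift was 0.18.

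No paired analysis was possible because the table holds group means, not single libraries. For the same reason the replicate block and leaving out each replicate were not run, and whether a called gene differed by more than its libraries do is not known. With a higher mean between 0 and 1 the median counting half-width was 1.03, and above 5 it was 0.10. The spread of differences over genes (robust SD) exceeded the counting SD at every level. It was 0.58 against 0.53 with a higher mean between 0 and 1, and 0.12 against 0.05 above 5. Counting intervals can thus be too narrow at every level, and most of all above 5. The spread over genes also holds any true differences and the GC trend.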

Other observations

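Genes near the leading genes were listed after their values were seen. Each gene was counted once and the leading genes were left out. Within 100 kb of the 15 leading lower genes lay 39 other tested genes, of which 0 passed the rule in either direction, with a median difference of -0.06. Within 100 kb of the 15 leading higher genes lay 48, of which 0 passed, with a median of 0.04. Of all tested genes 1.53% passed, so 0 in sets of 39 and 48 is near that share and says little about the neighbours. LINC00656, a noncoding gene 75.3 kb from THBD, had 4.50 and 3.93 (-0.57 ± 0.23) and did not pass the rule.

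Reads per base of transcript reached 2.84 in untransduced libraries, in the signal recognition particle RNA gene RN7SL2. Over 1 read per base stood 32 of 15554 genes with a transcript of at least 300 bases.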
